A study of Homo sapiens with 11 samples.

Results

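Of 19974 protein-coding genes on chromosomes 1 to 22 and X, 6 genes of protein synthesis are described: the translation factor genes EIF5A, EIF4A1, EIF5 and ETF1, the alanyl-tRNA synthetase gene AARS1 and the mitochondrial release factor gene MTRFR. They were chosen by measured values in 5 deposited peak lists. In at least 1 list, a CUT&RUN peak, called a region here, had its summit within 1000 bp of an end of the gene. The summit is the position of highest signal. The same was true of 5 other translation genes, described further below. The 6 genes held 12 of the 5435 regions in all lists, namely 6 in edit_myc_FLAG, 3 in myc_FLAG, 2 in endog_myc, 1 in rbt_IgG and 0 in ms_IgG. As the presence, fold, −log10 q and position of these regions chose the genes, these are given as descriptions, with no test. Over all protein-coding genes, the share with a region at an end was 4.27% for edit_myc_FLAG, 1.65% for myc_FLAG, 1.80% for endog_myc, 0.0851% for rbt_IgG and 0.0200% for ms_IgG, and as the counts of the 6 genes follow from how they were chosen, they are not read against these shares.

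CUT&RUN uses an antibody to direct a nuclease to its target in permeabilised cells, and the released DNA is sequenced. HEK293T, a line from human embryonic kidney that carries the SV40 large T antigen, was used for all 11 libraries: 3 labelled edit_myc_FLAG, 3 myc_FLAG and 3 endog_myc, with 1 mouse IgG (ms_IgG) and 1 rabbit IgG (rbt_IgG) library as background. Per the labels' protocols the antibodies were mouse anti-FLAG, which binds an epitope tag, rabbit anti-myc, and the IgG of each species. The sources used here do not state what "edit" means, how the FLAG-tagged protein was introduced or whether the lines were clones, and the labels name no treatment or time. Each target list stands for the 3 libraries of its group, so no value below carries a replicate error, and the read depth is unknown.

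MYC binds DNA as a dimer with MAX, best known at the E-box, and is known for its presence at promoters of genes for growth and protein synthesis. Translation starts when initiation factors bring the ribosome to the start codon of an mRNA. Elongation factors then keep the ribosome moving, aminoacyl-tRNA synthetases supply tRNAs loaded with amino acids, and release factors free the finished protein at a stop codon. EIF4A1 is an RNA helicase that unwinds the mRNA leader, and EIF5 triggers GTP hydrolysis by the initiation factor that carries the initiator tRNA. EIF5A carries the modified amino acid hypusine and helps the ribosome past difficult stretches, and ETF1 recognises stop codons. AARS1 loads alanine onto its tRNA, and MTRFR acts in rescue of stalled ribosomes in mitochondria.

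The DNA under the regions is shown first, because the 6 stretches shared a short motif. Each line below is the part of the 250 bases before an annotated start site that the edit_myc_FLAG region covered, from the RefSeq table for GRCh38.p14 (hg38), 5′ to 3′ on the strand of the gene. Capitals mark CCAAT or its reverse complement ATTGG, the pentamer known as the CCAAT box or Y box.
EIF5A (chr17:7307378-7307559, plus strand): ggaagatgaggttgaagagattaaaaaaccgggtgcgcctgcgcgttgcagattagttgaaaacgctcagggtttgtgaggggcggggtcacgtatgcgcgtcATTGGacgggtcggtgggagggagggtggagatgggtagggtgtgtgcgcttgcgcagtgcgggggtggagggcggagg
EIF4A1 (chr17:7572575-7572696, plus strand): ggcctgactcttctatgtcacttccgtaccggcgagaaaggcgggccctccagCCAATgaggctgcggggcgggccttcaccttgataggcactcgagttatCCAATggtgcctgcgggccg
EIF5 (chr14:103334045-103334236, plus strand): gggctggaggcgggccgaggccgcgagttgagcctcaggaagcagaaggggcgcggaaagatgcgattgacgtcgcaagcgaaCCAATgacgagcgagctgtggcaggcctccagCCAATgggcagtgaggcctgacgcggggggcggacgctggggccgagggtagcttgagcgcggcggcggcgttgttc
ETF1 (chr5:138543312-138543486, minus strand): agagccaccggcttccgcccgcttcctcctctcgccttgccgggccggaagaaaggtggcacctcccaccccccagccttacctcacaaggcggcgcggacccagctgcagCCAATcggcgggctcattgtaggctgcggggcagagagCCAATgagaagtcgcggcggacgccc
AARS1 (chr16:70289507-70289660, minus strand): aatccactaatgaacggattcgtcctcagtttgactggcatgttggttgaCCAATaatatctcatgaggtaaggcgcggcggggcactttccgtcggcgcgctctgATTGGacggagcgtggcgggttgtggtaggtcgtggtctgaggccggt
MTRFR (chr12:123233186-123233410, plus strand): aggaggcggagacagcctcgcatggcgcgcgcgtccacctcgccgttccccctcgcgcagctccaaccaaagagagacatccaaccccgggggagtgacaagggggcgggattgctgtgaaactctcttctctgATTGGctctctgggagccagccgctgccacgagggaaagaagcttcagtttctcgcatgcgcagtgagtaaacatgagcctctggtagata

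All 6 stretches held the pentamer. EIF4A1, EIF5, ETF1 and AARS1 held 2 copies each, and EIF5A and MTRFR held 1 each. In EIF4A1 the nearest copy was centred 4 bp from the edit_myc_FLAG summit, in AARS1 17 bp, in EIF5 24 bp, in ETF1 67 bp and in EIF5A 113 bp. The second copy in the stretch lay 53 bp from that summit in EIF4A1, 73 bp in AARS1, 56 bp in EIF5 and 105 bp in ETF1. The stretches are short, and these distances were not set beside those of other regions. In MTRFR the copy lay 297 bp from the edit_myc_FLAG summit and 311 bp from the myc_FLAG summit, but 69 bp from the endog_myc summit. The edit_myc_FLAG and myc_FLAG summits of MTRFR and all summits of EIF5A lay outside the window shown, so the bases at those summits were not searched. For EIF5A and MTRFR the window with most covered bases belongs to a start site inside the gene, as 6 and 3 windows are listed for them, and the other windows of EIF5A were not covered over at least 100 bases.

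No copy of the E-box CACGTG was found in any of the 15 start-site windows (250 bases before to 50 after a start) of the 6 genes, where 8.34% of all 22132 windows of protein-coding genes held one. A looser form, CANNTG, occurred in 2 of the 6 windows from which the stretches above were taken, next to 65.1% of all windows and 49.7% of those covered by edit_myc_FLAG over at least 100 bases. Over any of their 15 windows, 5 of the 6 genes held it, but some genes have several windows. That count per gene has no matching share over all genes here. No match says only that these letters are absent from these windows. In all, 10 motifs were tabulated on both strands. They were the E-box CACGTG, the form CANNTG that includes it, the E-box variant CACGCG, the further variant CACATG, the further variant CACGAG, the pentamer CCAAT, the GC box GGGCGG, the ETS core CCGGAAG, the cyclic AMP response element TGACGTCA and the NRF1 core CGCATGCG. The variant CACGCG occurred in 1 of the 6 covered windows, and over any window in 3 of the 6 genes. For CACATG these counts were 2 covered windows and 3 genes. For CACGAG they were 1 covered window, inside the MTRFR stretch shown above, and 1 gene. Over all windows the shares of these variants were 14.2%, 8.93% and 7.38%. Over windows covered by edit_myc_FLAG they were 19.6%, 4.62% and 9.47%. Apart from both E-box forms, the 10 motifs were added after the files had been looked at, and no test was made.

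The pentamer was common under the lists as a whole, so its presence is not particular to the 6 genes. It occurred in 34.6% of all windows, in 323 of the 433 windows covered by an edit_myc_FLAG region over at least 100 bases (74.6%), in 164 of 187 for myc_FLAG (87.7%) and in 201 of 222 for endog_myc (90.5%). In the background library, 6 of 6 windows covered by a rbt_IgG region held it too. Within the covered stretches alone, the measure used for the 6 genes above, the pentamer was in 287 of 432 for edit_myc_FLAG (66.4%). The stretch shares were 81.3% for myc_FLAG and 82.9% for endog_myc, and all 6 rbt_IgG stretches held it. The GC box GGGCGG showed a smaller difference, with 56.3% of all windows and 84.5% of those covered by edit_myc_FLAG. It was in the covered window of all 6 genes, but in 5 of their 6 stretches, next to 67.8% of all edit_myc_FLAG stretches. The E-box was in 8.34% of all windows and in 11.1%, 11.2% and 6.76% of those covered by edit_myc_FLAG, myc_FLAG and endog_myc. The covered windows of the 6 genes had 60.0% to 68.3% G and C, next to a median of 62.3% over all windows and 67.7% over those covered by edit_myc_FLAG. Base composition thus moved with being covered, and its part in the motif shares was not tested.

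**Figure D1:**
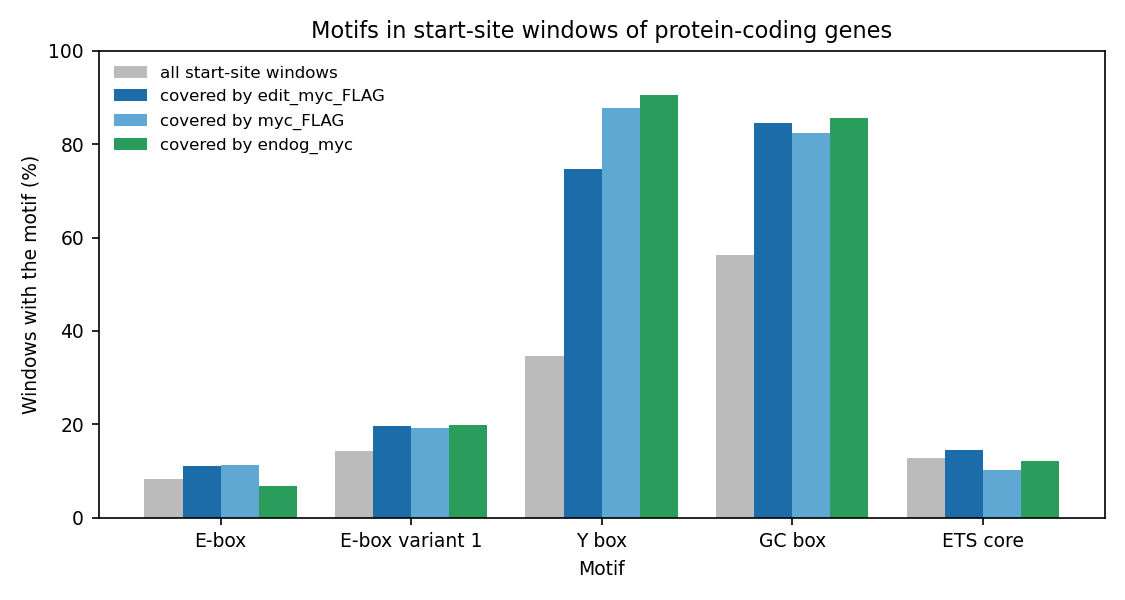
Share of start-site windows of protein-coding genes (vertical axis, percent) that hold each motif, for all windows (grey) and for windows covered over at least 100 bases by a region of each target list (colours). Y box is CCAAT, E-box is CACGTG, E-box variant 1 is CACGCG, GC box is GGGCGG and ETS core is CCGGAAG. The Y box is in 34.6% of all windows and in 74.6% to 90.5% of the covered ones, while the E-box stays between 6.76% and 11.2% throughout.

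The initiation factor genes had a region in edit_myc_FLAG alone. A region is described by the fold enrichment and the −log10 q (strength of the call, higher is stronger) that the authors' peak caller gave, which hold within 1 list, and by its rank by fold in that list. EIF4A1 (chromosome 17, 7572825 to 7579006) had a region from 7572531 to 7572696 with a fold of 6.10 and a −log10 q of 5.74, rank 705 of 2172. Its summit lay 199 bp before the annotated start, and 657 bp from the end of SENP3, a SUMO protease gene on the same strand. EIF5 (chromosome 14, 103334237 to 103345025) had a region from 103334045 to 103334294 with a fold of 5.06 and a −log10 q of 3.13, rank 1302. The EIF5 region was the weakest of the 6 in this list, it spanned the annotated start, and its summit lay 131 bp before it. The start of EIF5-DT, the divergent transcript named after EIF5 on the opposite strand, was 554 bp from that summit. The summit lay inside the span of EIF5-DT, so position alone does not give this region to EIF5.

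For EIF4A1 no region lay within 50000 bp in myc_FLAG, ms_IgG or rbt_IgG. The nearest endog_myc region was 36111 bp away, at an end of FXR2, with a fold of 5.98. For EIF5 no other list had a region within 50000 bp. Peak lists stop at a threshold, so a missing region is no measurement of absent signal.

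EIF5A, on chromosome 17 from 7306999 to 7312463, was the gene with a region in most lists, background included. In edit_myc_FLAG the region from 7307289 to 7307559 had a fold of 8.92 and a −log10 q of 12.1, rank 207 of 2172. In myc_FLAG the region from 7307245 to 7307603 had a fold of 5.92 and a −log10 q of 5.17, rank 549 of 1290. In endog_myc the region from 7307145 to 7307590 had a fold of 6.35 and a −log10 q of 6.50, rank 470 of 1359. EIF5A thus stood highest of the 6 genes in edit_myc_FLAG, where 2.59% of the 696 regions at gene ends had a higher fold, and lowest of those present in the other target lists, where 40.8% and 33.1% did. The rbt_IgG region from 7307218 to 7307426 had a fold of 6.11 and a −log10 q of 4.12, rank 148 of 309, and no ms_IgG region lay within 50000 bp. Of the 13 rbt_IgG regions at gene ends, that of EIF5A had the highest fold.

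The EIF5A regions lay on top of each other. The summits of edit_myc_FLAG and myc_FLAG were 1 bp apart, that of endog_myc was 16 bp from edit_myc_FLAG, and that of rbt_IgG was 46 bp from endog_myc, 61 bp from myc_FLAG and 62 bp from edit_myc_FLAG. All of the 209 bp of the rbt_IgG region were inside the endog_myc region, for which rabbit IgG is the matched background. The summits were 309 to 371 bp inside the gene from its annotated start, and no end of another gene was within 1000 bp. The share of gene-end regions on a region of either IgG list was 1.58% for edit_myc_FLAG, 3.53% for myc_FLAG and 3.14% for endog_myc. These shares stand for 11, 9 and 9 regions. The IgG lists come from 1 library each and held only 13 (rbt_IgG) and 3 (ms_IgG) regions at gene ends. Few target regions could thus meet one, so the low shares do not measure background at gene ends. How far signal that needs no specific antibody makes up the target regions of EIF5A was not tested.

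ETF1, the stop codon recognition factor on chromosome 5 from 138506095 to 138543236, had 1 region, in edit_myc_FLAG from 138543312 to 138543511. Its fold was 5.36 and its −log10 q 3.78, rank 1090 of 2172, next to the median fold of that list, 5.36. The summit lay 204 bp before the annotated start, near no other gene end. No region of the other 4 lists lay within 50000 bp.

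AARS1 (chromosome 16, 70252298 to 70289506) was in both FLAG lists and in neither endog_myc nor IgG, where no region lay within 50000 bp. In edit_myc_FLAG its region from 70289333 to 70289660 had a fold of 7.01 and a −log10 q of 7.48, rank 440 of 2172. In myc_FLAG the region from 70289515 to 70289695 had a fold of 7.90 and a −log10 q of 10.1, rank 276 of 1290, the highest fold of the 3 genes present there. The regions shared 146 bp, and their summits, 119 and 85 bp before the annotated start, were 34 bp apart. The summits fell between the starts of AARS1 and DDX19B, an RNA helicase gene that starts 261 bp away on the opposite strand. The edit_myc_FLAG region reached 173 bp into AARS1. The edit_myc_FLAG summit was 142 bp and the myc_FLAG summit 176 bp from the start of DDX19B. These regions cannot be given to 1 gene of the pair by position. A region near ends of more than 1 protein-coding gene was no exception, as 22.7% of the gene-end regions in edit_myc_FLAG and 29.0% in myc_FLAG were of this kind.

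MTRFR, on chromosome 12 from 123232914 to 123257960, was in the 3 target lists and had no IgG region within 50000 bp. In edit_myc_FLAG the region from 123232928 to 123233410 had a fold of 7.47 and a −log10 q of 9.36, rank 360 of 2172. In myc_FLAG the region from 123232881 to 123233330 had a fold of 7.51 and a −log10 q of 9.89, rank 319 of 1290. In endog_myc the region from 123232884 to 123233461 had a fold of 8.62 and a −log10 q of 13.1, rank 205 of 1359. MTRFR stood in the upper part of each list, with 7.47%, 14.5% and 5.23% of the gene-end regions above it by fold. Its regions were also the widest among those of the 6 genes, at 483, 450 and 578 bp, where the median over gene-end regions was 235, 266 and 293 bp. The edit_myc_FLAG and myc_FLAG summits were 14 bp apart at 111 and 97 bp inside the gene, while the endog_myc summit was 228 bp from the former, at 339 bp inside the gene, although its region contained all 483 bp of the edit_myc_FLAG region. It was 242 bp from the myc_FLAG summit, the largest shift between target lists among the 6 genes.

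**Figure D2:**
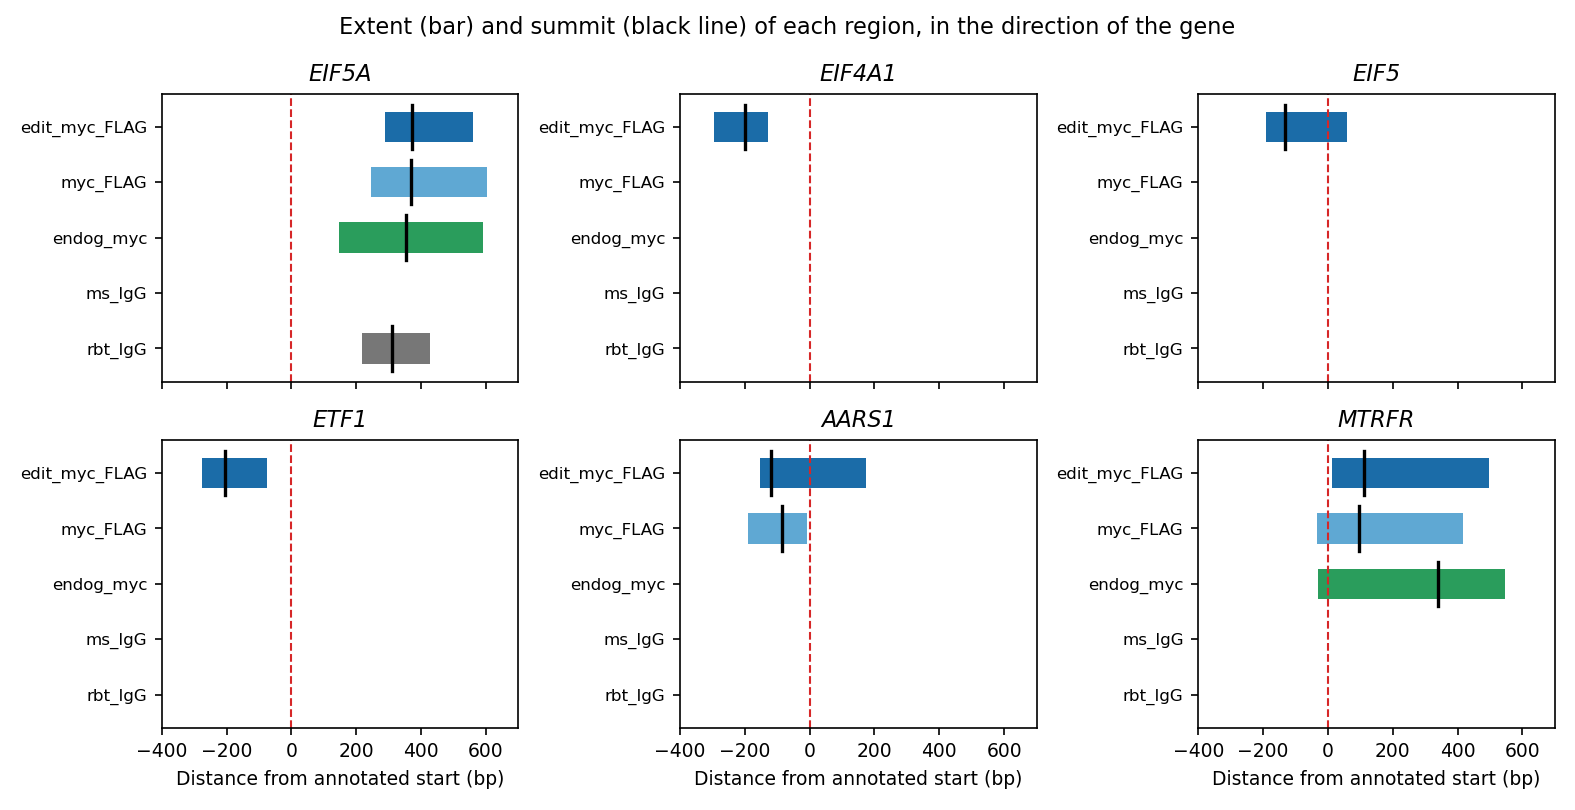
Position of each region relative to the annotated start of its gene (dashed line at 0, horizontal axis in bp, genes drawn left to right), with 1 panel for each gene and 1 row for each list. Bars are the regions and black lines their summits. EIF4A1, EIF5, ETF1 and AARS1 summits lie 85 to 204 bp before the start, and EIF5A and MTRFR summits lie 97 to 371 bp inside the gene. The start is that of the whole gene span, and EIF5A and MTRFR have further start sites inside the gene.

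The order of the genes by fold changed from list to list. In edit_myc_FLAG it was EIF5A, MTRFR, AARS1, EIF4A1, ETF1 and EIF5. In myc_FLAG it was AARS1, MTRFR and EIF5A, and in endog_myc MTRFR and EIF5A. The folds of 1 list have no replicate error, so neighbours in these orders, such as AARS1 at 7.90 and MTRFR at 7.51 in myc_FLAG, cannot be told apart. EIF5, ETF1 and EIF4A1, which were in 1 list, were the lowest of the 6 in that list.

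**Figure D3:**
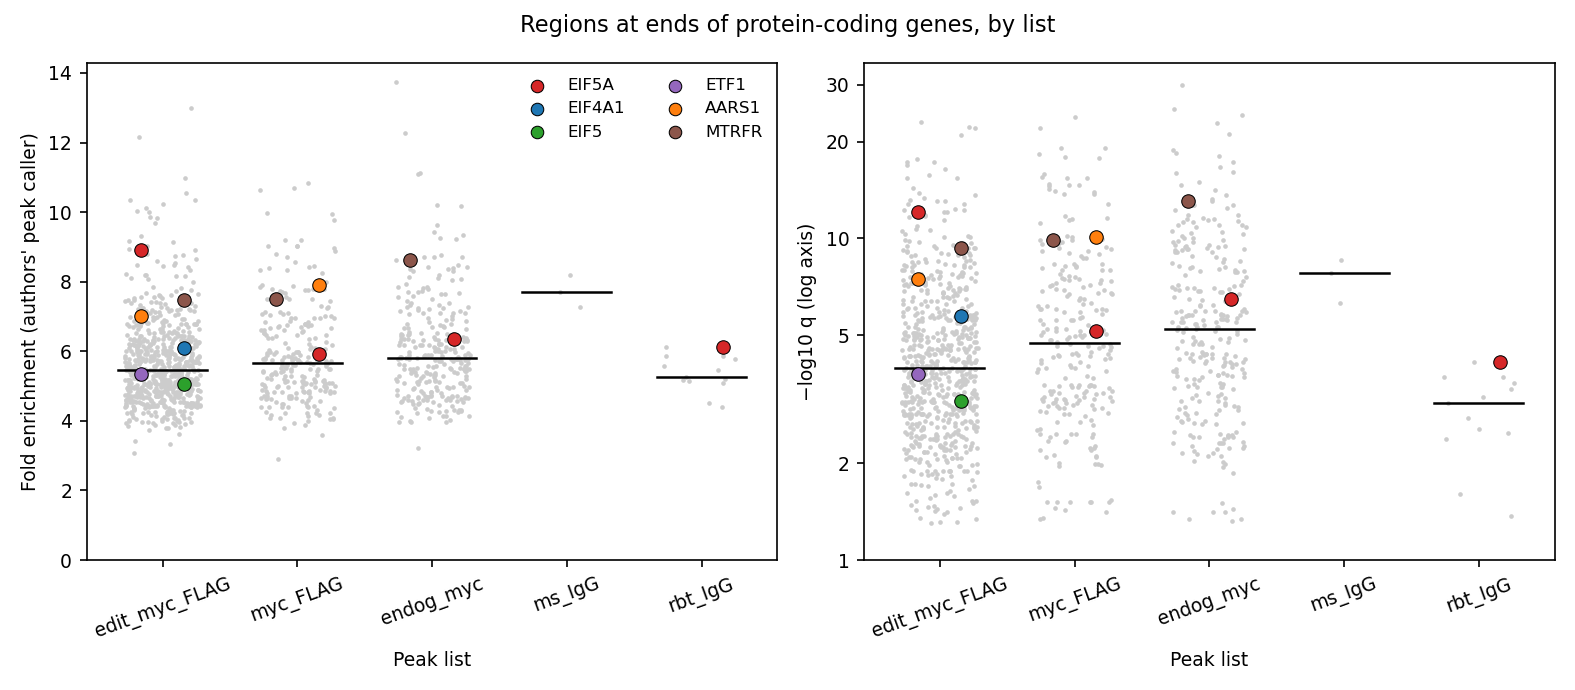
Fold enrichment (left) and −log10 q on a log axis (right) of every region at an end of a protein-coding gene (grey points) in each list, with the regions of the 6 genes in colour and the median of each list as a black line. In edit_myc_FLAG the 6 genes run from 5.06 to 8.92 in fold around a median of 5.45, and EIF5A alone is also marked in rbt_IgG.

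The region of each of the 6 genes lay on the side of the annotated start. The same held for most genes with a region at an end and a strand in the RefSeq table, in edit_myc_FLAG for 708 of 739 (95.8%), in myc_FLAG for 279 of 293 (95.2%) and in endog_myc for 306 of 317 (96.5%). At these genes the median summit was 71, 106 and 120 bp before the start, and the middle 50% of edit_myc_FLAG summits ran from 201 bp before to 130 bp inside the gene. In that list the summits of EIF5A, 371 bp inside, and of ETF1, 204 bp before the start, lay beyond this range, and those of the other 4 genes within it. All these distances are from the start of the whole gene span. EIF5A and MTRFR have further start sites inside the gene, and their summits lay before the start site of the window shown above. Their position inside or before a start thus depends on the start chosen.

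Of the 1065 protein-coding genes with a region in any list, 544 shared the pattern of EIF4A1, EIF5 and ETF1 (edit_myc_FLAG only), 73 that of AARS1, 138 that of MTRFR and 11 that of EIF5A.

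The genes most like each one were found among those present in exactly the same lists, by the Euclidean distance of the log2 fold over these lists, leaving out genes on the same region. For MTRFR, over 3 lists and 137 genes, they were PRR11 and SKA2, which share 1 region (distance 0.16), and CDCA2 (0.26). The region of PRR11 and SKA2 had a fold of 8.21, 7.13 and 8.72 in these lists, in the order edit_myc_FLAG, myc_FLAG, endog_myc. For AARS1, over 2 lists and 71 genes, they were NAP1L4 (0.18), AP3M2 (0.19) and CEP131 (0.31). For EIF5A, over 4 lists and 10 genes, the nearest were AGPAT5 (0.77), CIC (0.80) and FBXO24 (0.85). AGPAT5 had folds of 10.03, 9.02, 8.57 and 5.77 in edit_myc_FLAG, myc_FLAG, endog_myc and rbt_IgG. In myc_FLAG and endog_myc these were well apart from those of EIF5A. Such distances depend on the number of lists and of genes to choose from, so they are not compared between EIF5A, AARS1 and MTRFR.

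The wider machinery of protein synthesis was described with 120 genes in 6 classes, which include the 6 genes. A region at an end was listed for 11 of the 120 in edit_myc_FLAG, for 4 in myc_FLAG and for 3 in endog_myc, counts that hold the 6 genes chosen for having one. Without these 6, 5 of 114 remained in edit_myc_FLAG (4.39%, next to 4.27% of all protein-coding genes). In each of myc_FLAG and endog_myc 1 of 114 remained (0.877%, next to 1.65% and 1.80%). Only genes with a region were taken out of the 120, which lowers these shares, so they are not read against those of all genes. By class, edit_myc_FLAG had 2 of 44 initiation factor genes, 2 of 12 elongation factor genes, 1 of 9 termination and rescue factor genes, 2 of 24 cytosolic synthetase genes, 3 of 17 mitochondrial synthetase genes and 1 of 14 mitochondrial translation factor genes. Initiation factors had 0 of 44 in both myc_FLAG and endog_myc, and cytosolic synthetases had AARS1 alone in myc_FLAG and none in endog_myc. The ms_IgG list had 0 of 120 and the rbt_IgG list 1, EIF5A.

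The other 5 genes were mostly synthetases. SARS2, the mitochondrial seryl-tRNA synthetase, was the only one of them with regions in further lists. Its fold was 5.46 in edit_myc_FLAG, 7.84 in myc_FLAG and 8.10 in endog_myc. The SARS2 regions also lay within 1000 bp of an end of MRPS12, a gene for a mitochondrial ribosomal protein. CARS2, the mitochondrial cysteinyl-tRNA synthetase, had 6.58 in edit_myc_FLAG, on a region also at an end of ING1. EARS2, the mitochondrial glutamyl-tRNA synthetase, had 4.95 in edit_myc_FLAG, on a region whose summit was 179 bp from EARS2 and 173 bp from UBFD1. TARS3, a threonyl-tRNA synthetase, had 5.77, and EEF1A2, an elongation factor that delivers tRNAs, had 4.05, both in edit_myc_FLAG. The regions of all 3 mitochondrial synthetase genes were shared with a neighbouring gene, as were those of AARS1. Those of TARS3 and EEF1A2 were near no end of another protein-coding gene. Over all gene-end regions of edit_myc_FLAG, 22.7% were shared in this way.

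The distance rule of 1000 bp did not separate near cases. The summit farthest inside it was that of EEF1A2 at 915 bp (fold 4.05), and the nearest outside was at 2942 bp from EIF3B in edit_myc_FLAG (fold 6.41), followed by MTRF1L at 3850 bp in endog_myc (4.96). Among the 6 genes the largest distance was 371 bp.

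**Figure D4:**
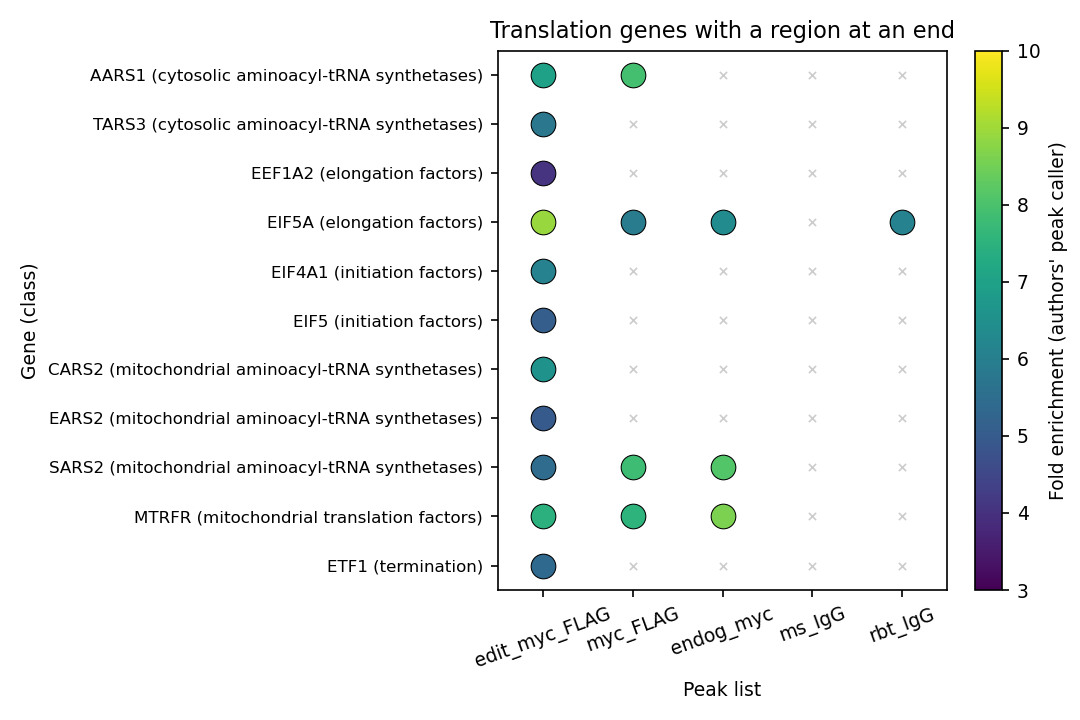
Fold enrichment (colour) of the regions at ends of the 11 translation genes that had one, by list (horizontal axis), where a cross marks a list with no region. All 11 genes are in edit_myc_FLAG, and EIF5A, MTRFR and SARS2 are in all 3 target lists.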

How the data were processed

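The authors deposited 5 peak lists on hg38, and no reads or coverage were used here. The submitters' processing notes name MACS3 3.0.0b1, HOMER 4.10, SAMtools 1.15 and Bowtie2 2.4.5, without their roles. Neither options, control library nor how 3 libraries became 1 list is stated there. The deposited fold enrichment, −log10 q and score are the authors' values of single peaks. The fold and −log10 q were used within a list, and the score and a −log10 p were not used.

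Summits were placed at start, offset and 1 added together, counted from 1, and joined to RefSeq gene spans (GRCh38.p14) within 1000 bp of either end with Python 3.11.15 and pandas 2.3.3. Strand and 300-base start-site windows came from a RefSeq promoter table that covers 15812 of 19974 protein-coding genes. Exon and UTR annotation was not used. The assignment and motif search were tested on simulated data. Genes named are the 6, other gene ends within 1000 bp of their summits, listed translation genes with a region, and the 3 most like genes. The genes and lists were chosen with earlier results of these data known. The alternatives were the window, region instead of summit, −log10 q of at least 5, equal list length, IgG overlap, start side, overlap definition and motif.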

Additional observations from a re-analysis of the deposited data

How the results depend on the processing

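Of 75 alternative values, 70 stayed within 1.5 times the value reported and 5 moved. Some could not move, such as the ms_IgG counts of 0, or myc_FLAG at equal list length, as 1073 is its own number of regions on chromosomes 1 to 22 and X. The counts are small, and a fall from 6 to 4 was still within 1.5 times, so this tally does not measure robustness. With a −log10 q of at least 5, the translation genes in edit_myc_FLAG fell from 11 to 6 (EARS2, EEF1A2, EIF5, ETF1 and TARS3 dropped out). Of the 6 genes, 4 were left there, and the share of all protein-coding genes fell to 1.45%. The rbt_IgG count was 0 under that threshold, both for the 6 genes and for the translation genes, as was that of all protein-coding genes. Without regions that overlap IgG, EIF5A left all 3 target lists. Of the 6 genes, 5 were left in edit_myc_FLAG, 2 in myc_FLAG and 1, MTRFR, in endog_myc. The shares of all protein-coding genes were then 4.20%, 1.59% and 1.73%. The number of the 6 genes with an E-box in a start-site window was 0 for CACGTG and 5 for CANNTG. With the 1073 highest-fold regions in each target list, EIF5 left edit_myc_FLAG, which kept 5 of the 6 genes, next to 2.63% of all protein-coding genes. No paired analysis was possible because each target list merges its 3 libraries, which also prevents leaving out a replicate. Read depth is unknown, so a gene missing from a shorter list may lie below its threshold.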
